A study of Mus musculus with 8 samples.

Results

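Myeloid C-type lectin receptors are surface proteins of macrophages, microglia, monocytes, granulocytes and dendritic cells that recognise sugars, lipids and products of damaged cells. Activating members reach the kinase Syk either through a tyrosine motif of their own, as Clec7a (Dectin-1) does, or through the adaptors Fcer1g and Tyrobp, and Syk then acts through the adaptor Card9 on NF-kB. Inhibitory members such as Clec12a and Clec4a2 carry a motif that recruits phosphatases. In the brain Clec7a is best known as a gene switched on in microglia around damage and low in resting microglia. The 10 genes Clec7a, Clec4a1, Clec4a2, Clec4a3, Clec4d, Clec4e, Clec4n, Clec5a, Clec12a and Clec10a were taken by symbol from a table of 38026 genes, and each symbol matched 1 row.

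The RNA came from cells of C57BL/6 mice that were held on magnetic beads by CD11b, an integrin subunit of myeloid cells. The tumor-associated microglia and macrophages (TAM) were 5 libraries from medulloblastoma taken at 68, 90, 61, 66 and 62 days of age for replicates 1 to 5. The normal microglia were 3 libraries from the cerebral cortex of mice aged 60 days. Tumor and brain region therefore cannot be told apart, and every TAM library came from older mice than the microglia did. The genotype of the tumor-bearing mice is not given in the sources used here. Nothing says whether a library is 1 animal, so p-values measure the spread between these libraries. The capture gene Itgam was at 150.1 to 233 TPM in TAM and 624.9 to 655 TPM in microglia. Csf1r, the receptor for the growth factor on which microglia depend, was at 725 to 1220.3 TPM in TAM and 3119 to 3417 TPM in microglia. Both the myeloid gene Itgam and the microglia and macrophage gene Csf1r were thus present in all 8 libraries. Every TAM library was below every microglia library for both.

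Levels are TPM, a share of all transcripts that is already divided by transcript length. Fold changes are TAM over microglia on the log2(TPM + 1) scale, so that the change of a low gene is understated. Read depth is not kept in TPM, so no counting interval is given. Over all 15262 genes tested the median log2 fold change was -0.65, and -0.04 once libraries were brought to a common median ratio against their mean (rescaled TPM). Fold changes of the 10 genes are given on both scales for this reason. Those of other genes are on TPM unless called rescaled. In bulk RNA, fewer cells of a type and less RNA per cell cannot be told apart.

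Of the 10 receptor genes 4 rose in TAM, namely Clec7a, Clec4e, Clec4d and Clec12a, and 1 fell, Clec10a (limma, adjusted p under 0.05). Of all tested genes 8.22% rose and 56.4% fell. On rescaled TPM the same 5 genes were called in the same directions, against 24.6% of tested genes higher and 25.1% lower. The median log2 fold change of the 10 genes was 0.07 on TPM and 0.77 rescaled, beside the medians of all genes above. Clec4a1, Clec4a2, Clec4a3, Clec4n and Clec5a did not pass on either scale, and for the 3 Clec4a genes TAM replicate 2, taken at 90 days of age, held values far above the other TAM libraries. Without that library 4 of the 10 were higher and 4 lower on TPM, the lower ones being Clec10a and the 3 Clec4a genes, against 8.62% of tested genes higher and 55.2% lower. On rescaled TPM without it 4 were higher and 2 lower (Clec10a and Clec4a2), against 25.3% and 25.5%.

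The sequences before the transcription starts of the 4 genes that rose are shown because these genes moved in 1 direction from 2 separate places on chromosome 6. Each is the 250 bases upstream of the RefSeq start on GRCm38.p6 (the mm10 assembly), written 5′ to 3′ on the gene's own strand, and for Clec12a that start lies inside the gene as the table gives it. Capitals mark GAGGAA or its reverse complement, the core bound by PU.1, the factor encoded by Spi1 that macrophages and microglia require.
Clec7a (chr6:129472780-129473029, minus strand): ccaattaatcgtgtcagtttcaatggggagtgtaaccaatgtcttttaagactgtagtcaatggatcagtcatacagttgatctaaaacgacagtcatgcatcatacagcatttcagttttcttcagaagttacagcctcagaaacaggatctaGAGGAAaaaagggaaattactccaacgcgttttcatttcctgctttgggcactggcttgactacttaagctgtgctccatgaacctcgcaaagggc
Clec4e (chr6:123289872-123290121, minus strand): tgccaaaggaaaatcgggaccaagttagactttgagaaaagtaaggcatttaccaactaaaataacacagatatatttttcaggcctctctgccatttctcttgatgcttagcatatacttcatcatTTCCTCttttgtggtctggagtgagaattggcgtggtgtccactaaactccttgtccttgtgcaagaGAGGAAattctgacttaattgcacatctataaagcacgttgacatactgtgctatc
Clec4d (chr6:123261857-123262106, plus strand): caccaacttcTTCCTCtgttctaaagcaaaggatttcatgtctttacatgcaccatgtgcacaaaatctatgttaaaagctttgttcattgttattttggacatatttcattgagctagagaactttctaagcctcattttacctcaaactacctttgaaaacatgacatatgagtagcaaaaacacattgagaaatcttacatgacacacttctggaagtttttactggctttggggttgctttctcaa
Clec12a (chr6:129349994-129350243, plus strand): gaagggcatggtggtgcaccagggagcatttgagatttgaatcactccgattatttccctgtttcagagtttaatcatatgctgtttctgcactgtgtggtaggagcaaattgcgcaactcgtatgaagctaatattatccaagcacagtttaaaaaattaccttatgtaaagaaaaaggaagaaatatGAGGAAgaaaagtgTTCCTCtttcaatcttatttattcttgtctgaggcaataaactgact
The PU.1 core was present in 6 of the 8 receptor genes that the promoter table holds (all but Clec4a2 and Clec4a3) and in 23.1% of the 27025 windows of the same length before all genes. The absences are uncertain, and so are the matches of Clec12a. The windows of Clec4a2 and Clec12a both lie inside their genes as listed. The bases after the Clec4a3 start were not found near the start of any of its GENCODE M21 transcripts. The PU.1 core nearest to the start ended 90 bases before it in Clec7a, 50 in Clec4e, 234 in Clec4d and 41 in Clec12a. Of the other motifs searched on both strands, the AP-1 site TGANTCA was in 1 of 8 (Clec12a) and 6.87% of all windows, the C/EBP site TTGCNNAA in 2 of 8 (Clec4e and Clec12a) and 9.55%, and the site of the MiT/TFE factors, CACGTG, in none of 8 and 6.05%. A match describes the letters of the window and does not show binding.

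Clec7a, the receptor for beta-glucan of fungal walls, lies on chromosome 6 from 129461591 to 129472779 on mm10, and both the deposited table and GENCODE M21 class it as a polymorphic pseudogene. It stood at 554, 179, 425, 383 and 316 TPM in TAM replicates 1 to 5, against 19.4, 11.1 and 10.1 TPM in microglia replicates 1 to 3. Every TAM library was above every microglia library, with TAM replicate 2 the lowest of the 5. The means were 371 ± 138 TPM in TAM (SD, n = 5) and 13.5 ± 5.12 TPM in microglia (SD, n = 3). The log2 fold change of Clec7a was 4.64 (SE 0.36, limma, adjusted p = 5.41e-05), 5.32 rescaled (adjusted p = 8.85e-05) and 4.88 without TAM replicate 2.

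Clec4e (Mincle), which signals through Fcer1g and binds mycobacterial glycolipid and a nuclear protein of dead cells, lies at 123281789 to 123289870 on chromosome 6. It was at 8.42, 35.8, 11.5, 15.1 and 12.9 TPM in TAM replicates 1 to 5, against 0.654, 0.459 and 0.531 TPM in microglia replicates 1 to 3. The gene thus stood below 1 TPM in each microglia library and above 8 TPM in each TAM library, highest in TAM replicate 2. The fitted change was 3.35 on the log2 scale (SE 0.39, limma adjusted p = 0.000293), and 3.73 rescaled.

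Clec4d (MCL), the partner with which Clec4e forms a receptor complex, is its neighbour at 123262111 to 123275265. It was at 4.10, 26.6, 9.76, 5.30 and 4.58 TPM in TAM replicates 1 to 5, against 0.582, 0.728 and 0.927 TPM in microglia replicates 1 to 3. The groups did not overlap here either, and TAM replicate 2 was again highest. On the log2 scale it was higher by 2.34 (SE 0.53, adjusted p = 0.00510) and 2.75 rescaled. Clec4e exceeded Clec4d in every TAM library, by 1.18 to 2.86 times per transcript length, whereas in microglia the ratio was 0.573 to 1.12. Both genes were below 1 TPM in every microglia library and depth is unknown, so the microglia ratio is uncertain.

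Clec12a (MICL), an inhibitory receptor that binds uric acid crystals, lies at 129342691 to 129365303 on chromosome 6, in the same locus as Clec7a. It was at 33.3, 138, 48.6, 31.5 and 40.9 TPM in TAM replicates 1 to 5, against 8.92, 7.70 and 7.86 TPM in microglia replicates 1 to 3. All TAM libraries were above all microglia libraries, and TAM replicate 2 was 2.84 times the next highest. In the fit Clec12a was higher by 2.46 on the log2 scale (SE 0.44, adjusted p = 0.00180), 3.11 rescaled and 2.09 without TAM replicate 2.

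Clec10a (MGL1), which binds galactose-type sugars and is used as a marker of dendritic cells and of some tissue macrophages, lies on chromosome 11 from 70156197 to 70170834. It was at 25.0, 59.3, 15.8, 34.3 and 37.7 TPM in TAM replicates 1 to 5, against 125, 142 and 104 TPM in microglia replicates 1 to 3. Every TAM library was below every microglia library, TAM replicate 2 being the closest. Its log2 fold change was -1.93 (SE 0.36, adjusted p = 0.00217) and -1.23 rescaled (adjusted p = 0.0234). The value is uncertain because its transcript matches that of the neighbouring gene Mgl2 at 96.1% over 735 bases, so reads could be split between them. Summed with Mgl2, a choice made after the data were seen, the log2 fold change was -1.68 (adjusted p = 0.00655) and -0.96 rescaled, where the call was lost (adjusted p = 0.0624). Rescaled, the call of Clec10a alone was also lost without microglia replicate 1 or 2 (adjusted p = 0.0685 and 0.0643).

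**Figure D1:**
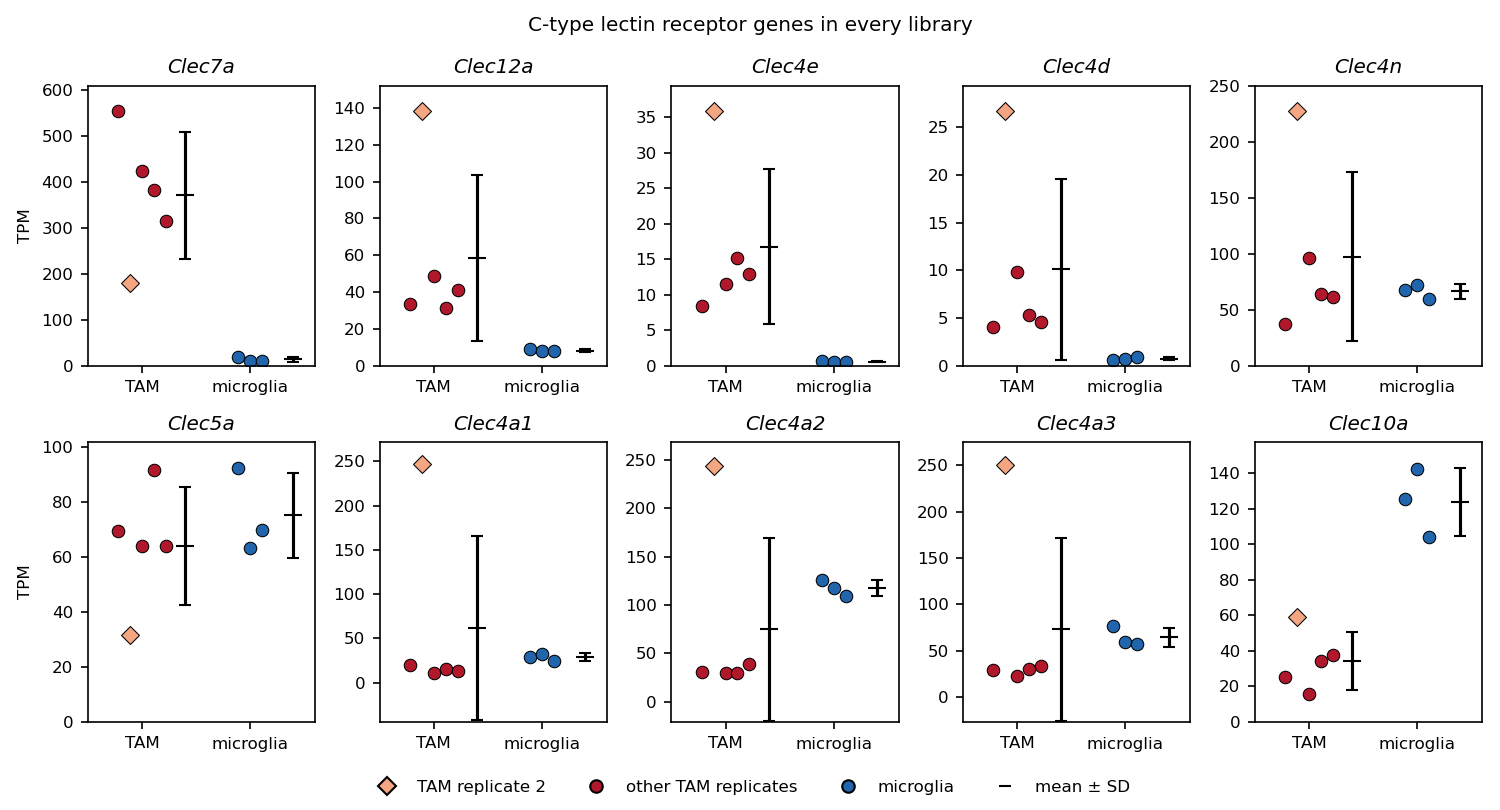
TPM (vertical axis, linear, 1 panel per gene) of the 10 receptor genes in every library, TAM left of microglia, with the mean and SD beside the points. The diamond is TAM replicate 2, which is the highest TAM library in 8 panels and the lowest in those of Clec7a and Clec5a.

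Among the 3 Clec4a genes the widest gap lay within TAM, between replicate 2 and the other libraries. Clec4a2 (DCIR), an inhibitory receptor, at 123106428 to 123143999, stood at 30.7, 244, 29.7, 30.2 and 39.4 TPM in TAM replicates 1 to 5, against 126, 118 and 109 TPM in microglia replicates 1 to 3. Its paralogue Clec4a3, at 122952515 to 122969875, stood at 29.4, 249.7, 23.2, 30.002 and 33.9 TPM in TAM, against 76.1, 59.7 and 57.5 TPM in microglia. Clec4a1, at 122921848 to 122934619, stood at 20.3, 247, 11.2, 15.5 and 13.05 TPM in TAM, against 29.2, 32.7 and 24.5 TPM in microglia. For all 3 genes TAM replicates 1, 3, 4 and 5 were below every microglia library and TAM replicate 2 was above every one. TAM replicate 2 was 6.19 (Clec4a2), 7.37 (Clec4a3) and 12.1 (Clec4a1) times the next highest TAM library, a gap of 5 times or more that 0.563% of all tested genes showed.

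With all libraries none of the 3 passed (log2 fold change -1.26, -0.51 and -0.12 for Clec4a2, Clec4a3 and Clec4a1, limma adjusted p = 0.121, 0.540 and 0.914). Rescaled, the values were -0.55, 0.20 and 0.57, so the sign of Clec4a3 and Clec4a1 turned with the scale. Without TAM replicate 2 all 3 were called lower in TAM, at -1.83 (adjusted p = 6.57e-05), -1.12 (adjusted p = 0.000999) and -0.92 (adjusted p = 0.00682). On rescaled TPM without that library Clec4a2 alone was called, at -1.13 (adjusted p = 0.000743), with Clec4a3 at -0.42 (adjusted p = 0.122) and Clec4a1 at -0.24 (adjusted p = 0.492). The authors' deposited table gives Clec4a1, Clec4a2 and Clec4a3 log2 fold changes of 1.62, 0.17 and 0.92, with no p-value. Of the 203 genes that have a fold change but no p-value in the authors' deposited table, 76 showed a TAM replicate 2 at 5 times the next TAM library or more.

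Clec4n (Dectin-2), an activating receptor for mannans that signals through Fcer1g, lies at 123229843 to 123247021 on chromosome 6 and was at 37.5, 228, 96.8, 64.4 and 61.1 TPM in TAM replicates 1 to 5, against 67.7, 72.0 and 59.6 TPM in microglia replicates 1 to 3. The groups overlapped, with TAM libraries on both sides of the microglia. Its log2 fold change was 0.27 (SE 0.49, adjusted p = 0.641) and 0.98 rescaled (SE 0.52, adjusted p = 0.150), and it was called higher in the authors' deposited table, at 1.33 (deposited p adjusted here = 0.0335). Clec5a (MDL-1), an activating receptor that signals through Tyrobp, lies apart from the others at 40574894 to 40585821 on chromosome 6 and was at 69.3, 31.5, 64.0, 91.4 and 63.8 TPM in TAM, against 92.3, 63.0 and 69.8 TPM in microglia. TAM replicate 2 was the lowest library and the other 4 lay within the microglia range. Its log2 fold change was -0.28 (SE 0.31, adjusted p = 0.428) and 0.42 rescaled (SE 0.36, adjusted p = 0.355). A p above the threshold does not show that either gene was the same in both groups.

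**Figure D2:**
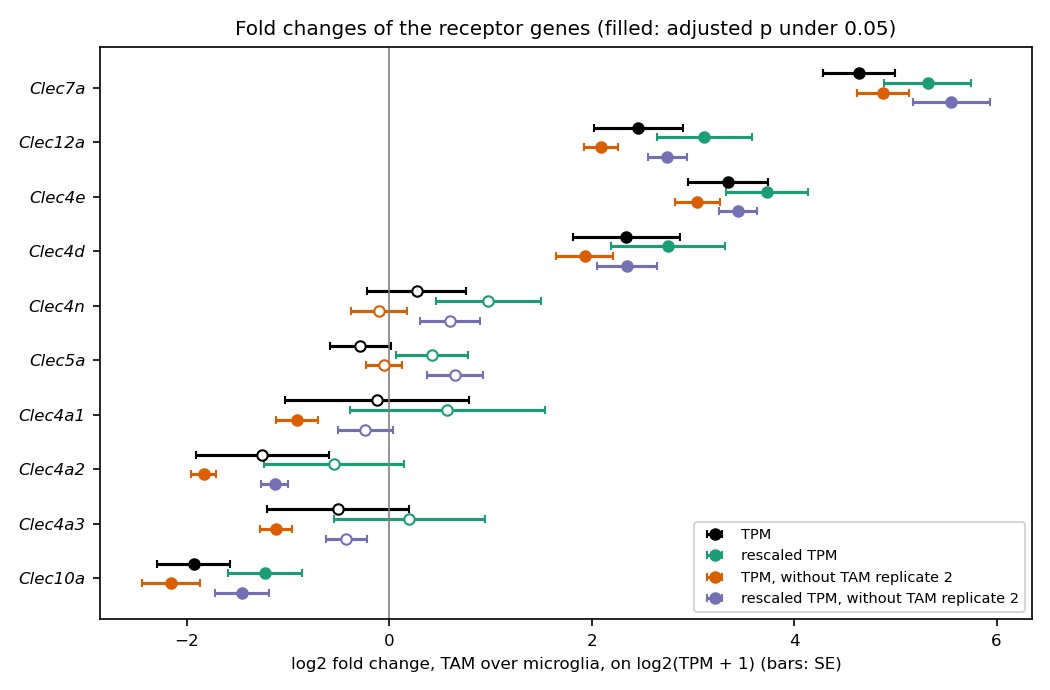
Log2 fold change of each receptor gene, TAM over microglia, on log2(TPM + 1), with bars for the SE, in 4 fits (TPM and rescaled TPM, with and without TAM replicate 2). Filled points passed an adjusted p of 0.05 (limma), and the call or the sign differs between fits for the 3 Clec4a genes, Clec4n and Clec5a.

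By the separation of single libraries, 4 of the 10 genes had every TAM library above every microglia library, against 7.97% of all tested genes. Clec10a was the 1 gene with every TAM library below, against 49.7% of all tested genes. A p-value is given for 7 of the 10 genes in the authors' deposited table, and after adjustment here 5 were higher (Clec7a at 5.39, Clec4e at 5.53, Clec4d at 4.33, Clec12a at 3.52 and Clec4n) and 1 lower (Clec10a at -1.01). Of all genes with a p-value in the authors' deposited table, 17.6% were higher and 16.0% lower. Both sets of values come from the same libraries and are not independent of each other.

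The order of levels differed between the groups. By mean TPM, in TAM Clec7a came first at 371 TPM, Clec4n followed at 97.5 ± 75.7 TPM (SD, n = 5) and Clec4d was last at 10.1 ± 9.53 TPM, and the ranges of all neighbours overlapped. Without TAM replicate 2 the lowest Clec7a value was 316 TPM and the highest Clec4n value 96.8 TPM, so the overlap of those 2 genes rested on that library. Second place rested on it too, since without it Clec5a averaged 72.1 TPM and Clec4n 65.0 TPM, while Clec4d stayed last at 5.94 TPM. In microglia Clec10a (124 ± 19.1, SD, n = 3) and Clec4a2 (118 ± 8.14) came first, then Clec5a, Clec4n and Clec4a3 at 75.0, 66.4 and 64.4, then Clec4a1 at 28.8, Clec7a at 13.5 and Clec12a at 8.16, with Clec4d and Clec4e last at 0.746 and 0.548. Libraries overlapped between Clec10a and Clec4a2, between neighbours among Clec5a, Clec4n and Clec4a3, and between Clec4d and Clec4e, while the other neighbours did not overlap.

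The summed level of the 10 genes was 812, 1439, 735, 700.5 and 623 TPM in TAM replicates 1 to 5, against 546, 507 and 444 TPM in microglia replicates 1 to 3. Clec7a made up 68.2%, 12.4%, 57.8%, 54.7% and 50.7% of that sum in TAM replicates 1 to 5, against 3.55%, 2.18% and 2.27% in microglia. The 3 Clec4a genes together made up 9.90%, 51.5%, 8.72%, 10.8% and 13.9% in TAM, against 42.3%, 41.4% and 43.1% in microglia. In TAM replicate 2 the largest share was thus that of the Clec4a genes, as in microglia, and in the other 4 TAM libraries it was that of Clec7a.

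**Figure D3:**
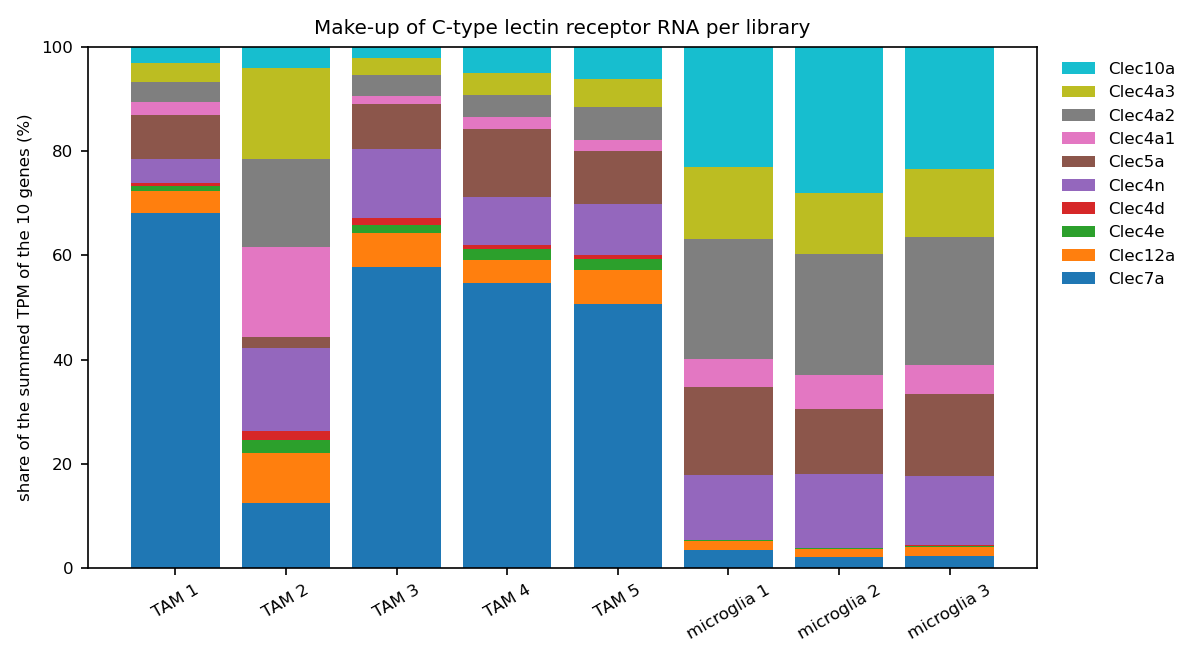
Share (%) of each receptor gene in the summed TPM of the 10 genes, 1 bar per library, TAM left of microglia. Clec7a takes 50.7% to 68.2% in 4 TAM bars, 12.4% in TAM replicate 2 and 2.18% to 3.55% in microglia.

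TAM replicate 2 was the highest of the 5 TAM libraries for 8 of the 10 receptor genes, against 18.3% of all tested genes, and the lowest for the other 2 (26.0% of all tested genes). Markers of other myeloid cells moved with it. Of 12 monocyte markers it was highest in 8, of 13 neutrophil markers in 7, of 10 dendritic cell markers in 7 and of 10 border macrophage markers in 6, and of 12 resting microglia markers it was lowest in 11. The summed neutrophil markers were at 672 TPM in TAM replicate 2, 249 to 379 TPM in the other TAM libraries and 435 to 482 TPM in microglia, with S100a9 at 245, 24.5 to 102 and 6.51 to 15.3 TPM in the same order. Csf3r, which made up most of the microglia sum at 389 to 447 TPM, went the other way, at 99.4 TPM in TAM replicate 2 and 166 to 223 TPM in the other TAM libraries. Ly6g, which defines neutrophils, was at 0.540 TPM in TAM replicate 2 and 0.794 TPM in TAM replicate 4 and listed at 0 in the other 6 libraries. Elane, of neutrophil granules, was at 0.196 TPM in TAM replicate 2, 0.536 TPM in TAM replicate 1 and 0.102 TPM in microglia replicate 1, and listed at 0 elsewhere.

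Summed border macrophage markers were at 2303 TPM in TAM replicate 2, 988 to 1638 TPM in the other TAM libraries and 1390 to 1833 TPM in microglia, and the mannose receptor Mrc1 at 231, 49.2 to 105 and 162 to 237 TPM. Summed dendritic cell markers were at 154, 72.1 to 92.8 and 118 to 127 TPM, and the defining dendritic cell genes Flt3 and Xcr1 at 4.91 and 2.26 TPM in TAM replicate 2. The monocyte marker Ccr2 was at 48.3, 2.62 to 17.0 and 5.53 to 6.25 TPM in the same order. Other monocyte markers were higher in TAM replicate 1 than in TAM replicate 2, with Ly6c2 at 77.9 and 5.88 TPM, Plac8 at 70.7 and 37.3 TPM and Itgal at 57.2 and 32.7 TPM. In the order used for Ccr2, the summed monocyte list, most of it Lyz2, was at 9745, 5306 to 11737 and 722 to 1058 TPM. Summed resting microglia markers were at 3179, 6938 to 8984 and 16863 to 20124 TPM, with P2ry12 at 65.0, 268 to 382 and 1972 to 2586 TPM. None of these 12 resting markers was listed at 0. Between the groups, 7 of 11 tested monocyte markers rose and 1 fell (8 and 1 rescaled), and 4 of 9 neutrophil markers rose and 2 fell (5 and 0 rescaled). None of 8 dendritic cell markers rose and 3 fell (0 and 1 rescaled), 3 of 10 border macrophage markers rose and 4 fell (3 and 2 rescaled), and none of 12 resting markers rose and 10 fell (0 and 8 rescaled). These counts stand beside 8.22% of all tested genes higher and 56.4% lower on TPM, and 24.6% and 25.1% rescaled. The part of such cells in the levels of the receptor genes was not tested, and for this replicate age and library cannot be told apart.

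Markers of damage-associated microglia rose in 8 of 10 (9 rescaled), with none lower, beside 8.22% of all tested genes higher (24.6% rescaled). TAM replicate 2 had the lowest TAM level of Cst7, a cystatin, at 75.0 TPM against 912 to 1562 TPM in the other TAM libraries, in the direction of Clec7a. It had the highest TAM level of Spp1 (osteopontin), at 1941 TPM against 388 to 794 TPM.

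Genes that lie between the receptor genes on chromosome 6 were low in most libraries. The Clec4 locus, from Clec4a1 to Clec4e, spans 368 kb and holds 11 listed genes, 6 of them in the set described here. Clec4b1 (DCAR), an activating receptor, lies between Clec4a3 and Clec4a2 and was at 2.06, 74.3, 3.48, 4.13 and 3.46 TPM in TAM replicates 1 to 5, against 2.17, 2.46 and 1.58 TPM in microglia. It thus shared the excess of TAM replicate 2 and did not pass (log2 fold change 1.30, adjusted p = 0.254). Without that library its value was 0.47 on TPM, not called (adjusted p = 0.115), and 0.96 on rescaled TPM, where it was called (adjusted p = 0.00866). Clec4a4 was at 2.23 TPM in TAM replicate 2 and at 0.0947 to 0.613 TPM in the other TAM libraries, and Clec4b2 stayed below 0.1 TPM in all 8 libraries. The closest transcript match of Clec4a2 was Clec4a4, at 84.6% over 785 bases, of Clec4a3 Clec4a2 at 79.3% over 682, and of Clec4a1 Clec4a3 at 75.3% over 507.

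In the Clec7a locus, 130.1 kb from Clec12a to Clec7a, the other lectin genes were Clec12b, Clec1b, Clec9a and Clec1a. Clec1b (CLEC-2), the podoplanin receptor of platelets and some myeloid cells, rose at a low level, at 1.15 to 1.71 TPM in TAM and 0.0586 to 0.388 TPM in microglia (log2 fold change 0.97, adjusted p = 0.00187). Clec9a, a marker of cross-presenting dendritic cells, was at 0.688 to 2.31 TPM in TAM and 0.0853 to 0.739 TPM in microglia and was too low to be tested. Clec1a was at 0.866 to 1.23 TPM in TAM and 0.466 to 2.06 TPM in microglia and did not pass (adjusted p = 0.529), and Clec12b stayed below 0.13 TPM.

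**Figure D4:**
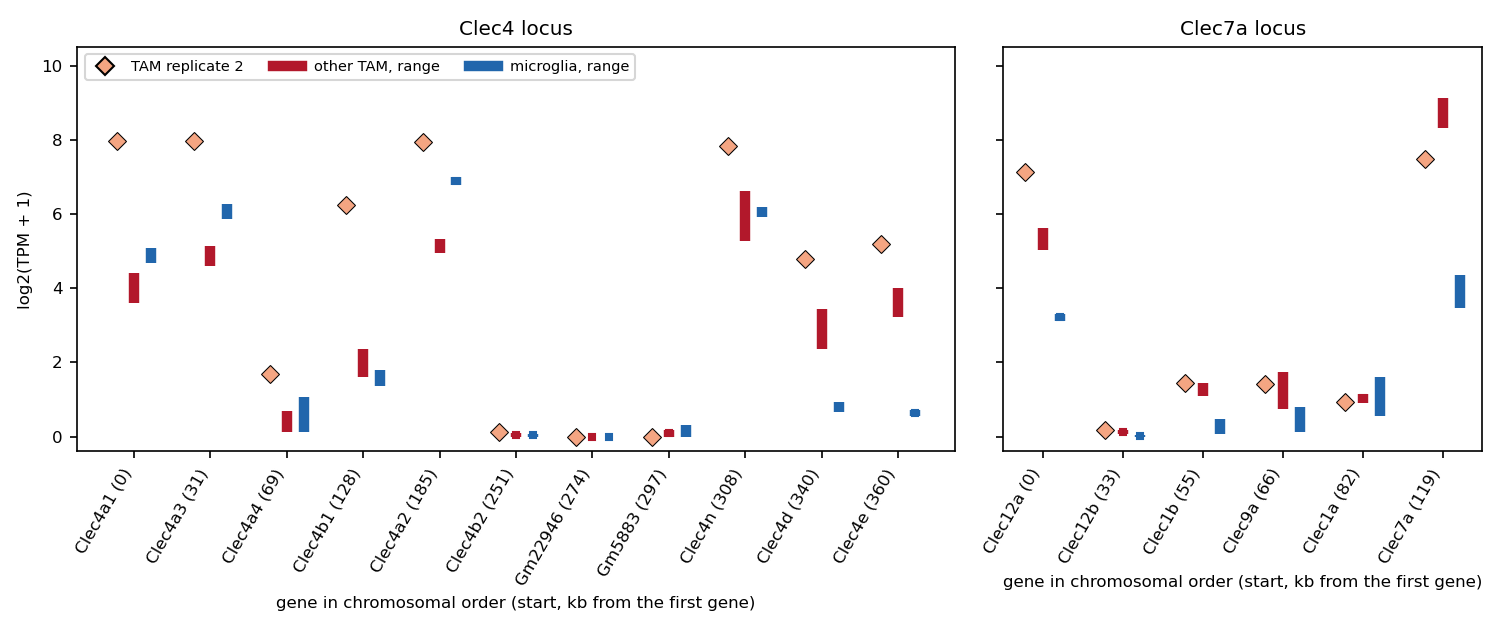
Level on log2(TPM + 1) of every gene listed between Clec4a1 and Clec4e and between Clec12a and Clec7a, in chromosomal order with the distance of each start from that of the first gene in kb. For each gene the diamond is TAM replicate 2, the red bar the range of the other TAM libraries and the blue bar the range of microglia, and TAM replicate 2 stands at more than 2 times the top of the red bar for Clec4a1, Clec4a3, Clec4a4, Clec4b1, Clec4a2, Clec4n, Clec4d, Clec4e and Clec12a.

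Among 33 other C-type lectin genes 21 were tested, of which 4 rose and 10 fell (4 and 6 rescaled), with a median log2 fold change of -1.02 (-0.31 rescaled). Of all tested genes 8.22% rose on TPM and 24.6% rescaled, and the rescaled count of 4 is not above that share. The lower counts are near the shares of all tested genes that fell, 56.4% on TPM and 25.1% rescaled. Those that rose were Cd72, an inhibitory receptor of B cells and myeloid cells (4.14, adjusted p = 0.00120), the activation marker Cd69 (3.27), Olr1, a receptor for oxidised lipoprotein (1.62), and Clec1b. Cd72 was at 201, 506, 107, 158 and 42.3 TPM in TAM replicates 1 to 5, against 8.92, 4.86 and 9.60 TPM in microglia. The falls of lowest p were those of the collagen receptor Mrc2 (-3.94), the endothelial gene Clec14a (-2.59) and the pathogen receptors Cd209b (-3.72) and Cd209g (-2.96), all of them also called lower on rescaled TPM. Cd209b was at 0.206 to 3.50 TPM in TAM and 18.2 to 36.9 TPM in microglia, without overlap.

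The adaptors Fcer1g, Tyrobp and Hcst rose on both scales, and Card9 fell on both. Of 16 adaptor and kinase genes 4 rose and 6 fell on TPM (6 and 1 rescaled). Of all tested genes 8.22% rose and 56.4% fell on TPM (24.6% and 25.1% rescaled). Fcer1g, the partner of Clec4e, Clec4d and Clec4n, was at 1769, 2071, 1910.3, 1797 and 1181 TPM in TAM replicates 1 to 5, against 1104, 919 and 846 TPM in microglia. Its log2 fold change was 0.85 (adjusted p = 0.00551) and 1.57 rescaled, without overlap between the groups. Tyrobp, the partner of Clec5a, was at 2629 to 4700.0 TPM in TAM and 1856 to 2303 TPM in microglia (0.94, adjusted p = 0.00489). Hcst, a related adaptor, rose by 1.06 and the Src-family kinase Fgr by 2.06 on the log2 scale.

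Syk itself was at 56.0, 108, 74.5, 68.7 and 72.5 TPM in TAM replicates 1 to 5, against 69.6, 77.3 and 75.3 TPM in microglia. It did not pass on TPM (log2 fold change 0.00, adjusted p = 0.987). The rescaled value, 0.71, passed (adjusted p = 0.0200). Card9, the adaptor that joins Syk to NF-kB, was at 70.7, 66.8, 66.2, 68.7 and 82.5 TPM in TAM, against 182, 197 and 184 TPM in microglia. All TAM libraries were below all microglia libraries, with a log2 fold change of -1.40 (SE 0.10, adjusted p = 3.75e-05) and -0.68 rescaled (adjusted p = 0.00107). Its partner Bcl10, the exchange factor Vav1 and the phospholipase Plcg2 fell on TPM (-0.75, -0.73 and -0.76) and stood at -0.05, -0.02 and -0.05 without a call on rescaled TPM.

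Of 5 genes listed here as possible brakes on signalling, none rose and 3 fell on TPM (Inpp5d, Ptpn11 and Cbl). That is near the share of all tested genes that fell on TPM (56.4%). None of the 5 was called on rescaled TPM, and whether each restrains these receptors was not tested. The phosphatase Ptpn6, which inhibitory lectins recruit, was at 182 to 308 TPM in TAM and 252 to 286 TPM in microglia (-0.13, adjusted p = 0.527). Of 12 genes of the NF-kB, NFAT, Egr and Irf families 10 fell and none rose (4 and 0 rescaled). The share of all tested genes that fell was 56.4% on TPM and 25.1% rescaled. Among the 12, those of lowest p were Rela (-1.20), Irf5 (-1.19), Irf1 (-1.41) and Nfatc2 (-0.96). Of these Nfatc2 was not called on rescaled TPM (-0.28, adjusted p = 0.0877). Among 14 products of these pathways 12 were tested, 4 of which rose and 5 fell (4 and 3 rescaled). The shares of all tested genes were 8.22% higher and 56.4% lower (24.6% and 25.1% rescaled). Il1rn, which blocks the IL-1 receptor (3.60), Il1b (1.44), Ptgs2 (1.41) and Il10 (1.37) rose. Tnf (-1.61), Nlrp3 (-1.45), Cxcl1 (-1.48) and Ccl4 (-1.56) fell, and of these Ccl4 was not called on rescaled TPM (-0.84, adjusted p = 0.135).

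Of 6 genes listed for reported ligands of the receptors, 1 of them (Sap130) by a shared name only, 5 were tested. Anxa5, one of the annexins that Clec7a binds on dying cells, was at 183, 204, 259, 194 and 229 TPM in TAM replicates 1 to 5, against 59.2, 100.0 and 72.5 TPM in microglia (1.48, adjusted p = 0.000333). Sap130 shares a name with a protein ligand of Clec4e but is a different gene, so its level does not describe that ligand. Sap130 was at 10.3 to 14.9 TPM in TAM and 17.4 to 20.6 TPM in microglia. It fell by 0.62 on the log2 scale, with no call rescaled (0.06, limma adjusted p = 0.638). Lgals9 (galectin-9) did not pass on TPM (0.16, adjusted p = 0.608) and was called higher rescaled (0.88, adjusted p = 0.0349) and on TPM without TAM replicate 2 (0.38, adjusted p = 0.0106). Vim and Anxa1 did not pass on either scale.

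**Figure D5:**
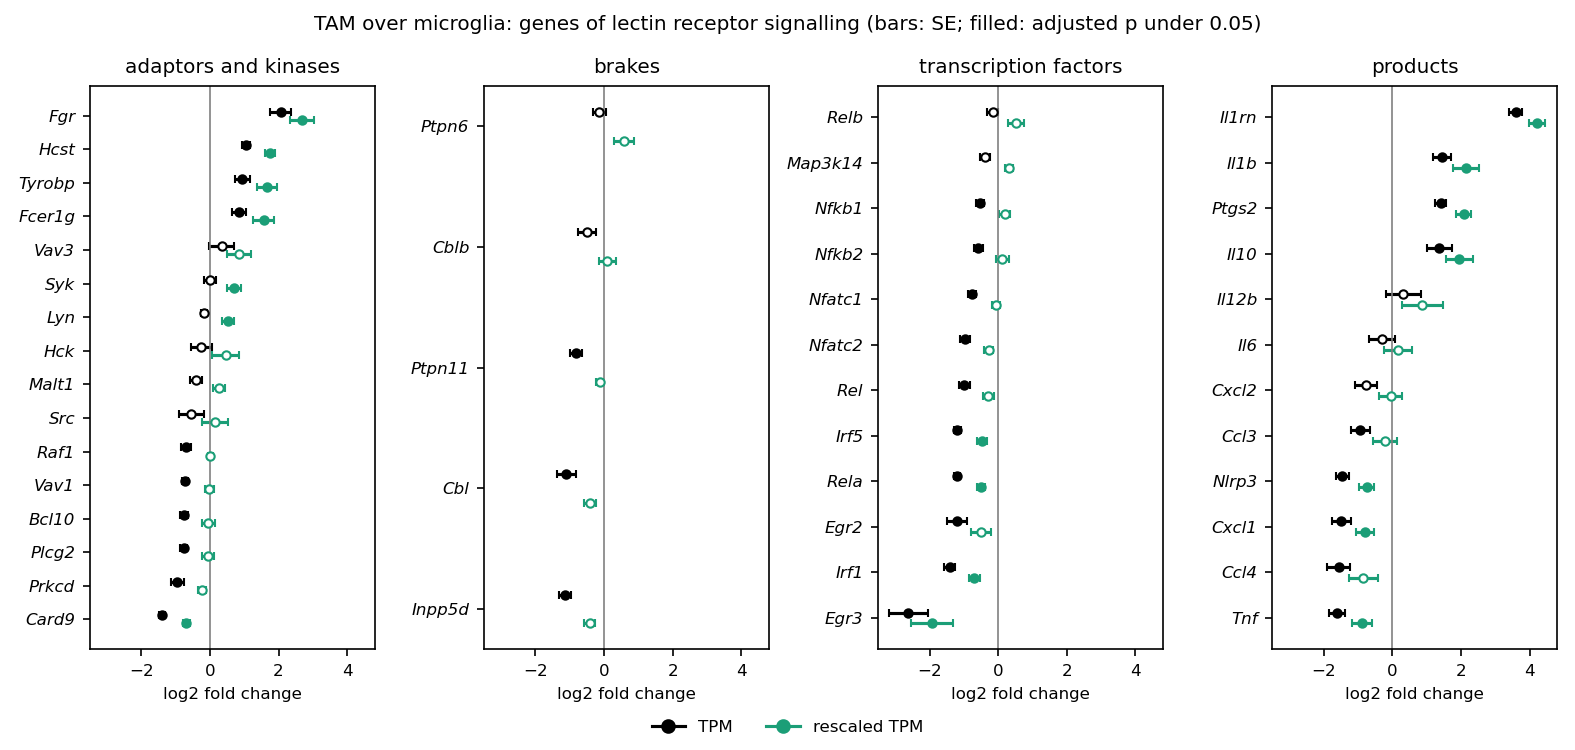
Log2 fold changes, TAM over microglia, with SE bars for the tested genes of 4 lists of lectin receptor signalling, on TPM (black) and rescaled TPM (green), filled where the adjusted p was under 0.05 (limma). The adaptors Fcer1g, Tyrobp and Hcst lie right of 0 on both scales, and Card9, Rela, Irf5, Irf1, Egr3, Tnf, Nlrp3 and Cxcl1 are filled left of 0 on both.

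Likeness of pattern was measured as the root mean square difference between log2(TPM + 1) profiles over the 8 libraries, each centred on its gene's mean. TAM replicate 2 is among the 8, so near genes share its position by the way they were picked. The 5 genes nearest to Clec7a were Slc2a6, a sugar transporter (0.46), the sialic acid receptor Cd22 (0.49), the heparanase gene Hpse (0.59), Gm1673 (0.59) and Lgals3bp (0.62), all of which were lower in TAM replicate 2 than in the other TAM libraries. The nearest to Clec4e were H2-Aa (0.35), Plbd1 (0.40), H2-Ab1 (0.42), Runx3 (0.43) and Cela1 (0.46), all highest in TAM replicate 2, with Clec12a at 0.52 and Clec4d at 0.62. The nearest to Clec4a2 were Phlda3 (0.32), Smpdl3b (0.32), the border macrophage markers Cbr2 (0.37) and F13a1 (0.38), and Clec4a3 (0.38). Cbr2 was at 204 TPM in TAM replicate 2, 39.4 to 70.7 TPM in the other TAM libraries and 165 to 236 TPM in microglia. Clec7a and Clec4a2 differed by 3.15 on this measure and Clec7a and Clec4e by 1.15.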

How the data were processed

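Bulk RNA-seq of 5 TAM and 3 microglia libraries was used, from 1 table of 38026 genes; groups, replicate numbers and ages came from the sample labels. The authors deposited TPM, per the file headers, which summed to 990422 to 997832 per library, so the depth is unknown. The deposited mean signal, log2 fold change and unadjusted p-value columns are the authors' own comparison, per the file headers. The submitters' processing notes name mm10 as build, with FastQC and DESeq2 among the tools; the sources used here do not give the aligner, quantifier, annotation release or strandedness. A further 3 unnamed columns were not used.

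The 15262 genes reaching 1 TPM in 3 libraries or more were tested with limma 3.58.1 (R 4.3.3) with an intensity trend on log2(TPM + 1), all 8 libraries in 1 fit with no covariate, and p-values were adjusted by Benjamini-Hochberg over all tested genes at 0.05. The deposited p-values were adjusted the same way over the genes that have one. Because TPM are not counts, no count test was used. The fit was also run on simulated data with independent noise. Those held neither the median shift nor an outlying library like TAM replicate 2, so the run cannot vouch for the fit on these libraries. Libraries correlated across genes at 0.921 to 0.965 within TAM, 0.942 to 0.973 among microglia, and 0.781 to 0.882 across groups; none held identical values. Alternatives were rescaled TPM, a pseudocount of 0.1, no filter, age, a replicate block, leaving out each library, and the sum of Clec10a with Mgl2.

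The 10 genes and all gene lists were chosen with earlier results of these data known. The genes named are all 10, in each list other than the marker lists up to 4 genes per direction that were called, by lowest p, Syk, Card9, Fcer1g, Tyrobp and Ptpn6, the lectin genes between them, and the 5 nearest profiles of Clec7a, Clec4e and Clec4a2; other names were chosen after their values were seen. Near copies were sought with blastn 2.17.0 in GENCODE M21 transcripts, whose gene coordinates equal those of the table for the 10 genes. Promoter sequences are from RefSeq, GRCm38.p6, which held 8 of the 10.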

Additional observations from a re-analysis of the deposited data

Results flagged for a closer look

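In 10 of 47 genes checked, the library at 1 end of the 5 TAM libraries stood apart from the rest, by a gap to its nearest neighbour of more than 0.71 of the whole range. For normally distributed values chance flags about 1 in 20 such groups. The limit was applied to TPM without a log, which need not be normal, so the chance rate here is unknown. All flags were at the high end, and genes of 1 library are not independent. TAM replicate 2 was the high library in 8 of the 10. It stood apart for 6 receptor genes, by 0.961 of the range for Clec4a1 (247 TPM), 0.955 for Clec4a2 (244 TPM), 0.953 for Clec4a3 (249.7 TPM), 0.839 for Clec12a (138 TPM), 0.755 for Clec4e (35.8 TPM) and 0.749 for Clec4d (26.6 TPM). It stood apart also for Clec4b1 (0.971, 74.3 TPM) and Il10 (0.721, 24.4 TPM). TAM replicate 1 stood apart as the highest for Cd69 (0.850, 30.2 TPM) and TAM replicate 5 as the highest for Card9 (0.724, 82.5 TPM). Groups of 3 were not checked.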

How the results depend on the processing

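Clec7a, Clec4e, Clec4d and Clec12a were higher and called in all 24 alternatives, and the count of higher receptor genes was 4 in each. The count of lower receptor genes was 1 to 4 with 1 library left out on TPM and 0 to 2 on rescaled TPM. It was 4 with age as a covariate and 0 on rescaled TPM with the replicate block or with Clec10a and Mgl2 summed. Over all genes, 3755 were higher and 3837 lower on rescaled TPM, 3177 and 3131 there with the replicate block, and 3756 and 3836 there with the sum. With 1 library left out the counts were 894 to 1303 higher and 5581 to 9243 lower on TPM, and 2485 to 3943 and 2144 to 4068 rescaled.

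Signs turned for 4 receptor genes, none of them called with all libraries and no covariate. Clec4a1 stood at 0.57 on rescaled TPM, with or without the sum, 0.44 with the replicate block, 1.21 with both block and rescaling, and -0.92 to 0.17 (TPM) or -0.24 to 0.88 (rescaled) with 1 library left out. Clec4a3 stood at 0.20 on rescaled TPM, with or without the sum, 0.60 with block and rescaling, and -1.12 to -0.28 or -0.42 to 0.42 with 1 library left out. Clec5a stood at 0.42 on rescaled TPM, with or without the sum, 0.090 with age, 0.29 with block and rescaling, and -0.43 to -0.05 or 0.17 to 0.65 with 1 library left out. Clec4n stood at -0.30 with age and -0.10 to 0.54 or 0.60 to 1.21 with 1 library left out. With age as a covariate Clec4a1, Clec4a2 and Clec4a3 were called lower (-1.54, -2.24 and -1.57), in a fit where age is set mainly by TAM replicate 2. The causes were not tested.

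The titles number replicates 1 to 3 in both groups. Deviations of same-numbered libraries from their group means correlated at 0.150, 0.014 and -0.051. Differently numbered libraries were not compared, so these values cannot decide whether the numbers pair the libraries. The replicate block changed the call of 1 receptor gene, Clec10a on rescaled TPM (-1.27, adjusted p = 0.0526), and gave 1103 genes higher and 8613 lower on TPM. Depth is unknown, so no counting error can be given for low values such as Clec4d and Clec4e in microglia.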
